A study of Mus musculus with 6 samples.

Results

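Accessible chromatin was examined at 8 genes that write, erase or read DNA methylation or are often mutated in clonal haematopoiesis: Dnmt1, Dnmt3a, Dnmt3b, Uhrf1, Tet1, Tet2, Tet3 and Asxl1. A peak was assigned to one of these genes where the nearest end of any protein-coding gene belonged to it and lay within 50 kb of the peak's midpoint. This rule took 36 of the 42632 peaks in the table, among 34687 peaks linked to some protein-coding gene. Of the 36, 8 lay within 1 kb of a gene end and are called gene-end peaks, and 28 lay farther away and are called distal. The series compared long-term haematopoietic stem cells (LT-HSCs) held in a narrow gap with cells left free, to learn how confinement alters open chromatin. Confined cells (n = 3 libraries) had 13 h in suspension, 0.5 h of attachment to glass coated with fibronectin and 2 h beneath a 5 µm ceiling, and a dissociation reagent then released them. Unconfined cells (n = 3) had 16 h in suspension. Both groups were sorted as Lin- Sca1+ cKit+ CD34- Flt3- cells from the marrow of 10- to 16-week-old C57BL/6 mice and assayed by ATAC-seq, which counts insertions of a transposase into open DNA. Attachment and release went with confinement in each library and cannot be told apart from it. The replicates are called biological, but no source used here ties them to separate mice, so p-values measure the spread between these samples.

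In mammals, Dnmt1 copies methylation of CpG sites (a cytosine followed by a guanine) onto the new strand after replication, and Uhrf1 brings it to hemimethylated sites. Dnmt3a and Dnmt3b methylate new sites, and the Tet enzymes oxidise methylcytosine, the first step of its removal. Asxl1 is a chromatin protein that partners the deubiquitinase Bap1, which acts on histone H2A. In people, DNMT3A, TET2 and ASXL1 are the genes most often mutated in clonal haematopoiesis, the outgrowth of blood cells from one mutated stem cell. In mice, loss of Dnmt3a or Tet2 favours stem cell self-renewal over differentiation.

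The RefSeq promoter windows (build GRCm38.p6, that is mm10) run from 250 bases before to 50 bases after an annotated start, and 13 such windows belong to the 8 genes. Of the 36 peaks, 9 overlapped one: 5 gene-end peaks and 4 distal ones, since some annotated starts of Dnmt1, Dnmt3a and Tet3 lie inside the outer bounds of the gene. The 4 windows printed here belong to the Asxl1 peak that fell and to peaks covering an annotated start of Dnmt1, Tet2 and Uhrf1. They are given 5′ to 3′ along the gene's own strand, with each CpG in capitals because CpG is the site these enzymes act on.
Asxl1, chr2:153345580-153345879, plus strand: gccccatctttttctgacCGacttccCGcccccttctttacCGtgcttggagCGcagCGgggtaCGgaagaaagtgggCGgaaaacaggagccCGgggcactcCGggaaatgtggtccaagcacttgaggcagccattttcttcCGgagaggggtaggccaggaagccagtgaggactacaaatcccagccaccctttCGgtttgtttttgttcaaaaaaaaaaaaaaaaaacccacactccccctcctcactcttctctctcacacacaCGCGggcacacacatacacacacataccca
Dnmt1, chr9:20952574-20952873, minus strand: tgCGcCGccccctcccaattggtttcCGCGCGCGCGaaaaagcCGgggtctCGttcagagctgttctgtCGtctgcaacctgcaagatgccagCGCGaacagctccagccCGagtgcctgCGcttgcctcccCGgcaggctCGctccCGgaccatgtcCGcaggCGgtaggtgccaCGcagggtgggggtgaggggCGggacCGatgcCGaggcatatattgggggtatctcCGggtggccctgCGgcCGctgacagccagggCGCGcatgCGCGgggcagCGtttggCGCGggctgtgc
Tet2, chr3:133544341-133544640, minus strand: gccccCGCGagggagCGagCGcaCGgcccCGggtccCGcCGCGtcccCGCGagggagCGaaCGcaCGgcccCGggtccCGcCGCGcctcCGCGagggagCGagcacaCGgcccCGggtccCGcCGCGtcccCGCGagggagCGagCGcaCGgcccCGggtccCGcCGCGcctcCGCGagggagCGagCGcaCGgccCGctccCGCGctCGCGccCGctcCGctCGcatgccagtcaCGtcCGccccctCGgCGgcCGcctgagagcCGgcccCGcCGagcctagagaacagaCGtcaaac
Uhrf1, chr17:56304063-56304362, plus strand: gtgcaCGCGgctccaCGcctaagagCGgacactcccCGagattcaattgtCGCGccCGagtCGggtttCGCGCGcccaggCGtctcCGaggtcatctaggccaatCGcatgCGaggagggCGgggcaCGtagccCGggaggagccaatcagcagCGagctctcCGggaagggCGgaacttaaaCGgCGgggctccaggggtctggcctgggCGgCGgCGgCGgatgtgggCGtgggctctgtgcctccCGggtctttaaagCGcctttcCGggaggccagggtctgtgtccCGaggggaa

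These windows differ widely in CpG content. The Asxl1 window holds 13 CpG in 300 bases, equal to the median of 13 over 21263 windows of protein-coding genes, and 54.0% G and C against a median of 56.3%. The Tet2 window holds 57 CpG, the highest number among the 13 member windows, and the Dnmt1 and Uhrf1 windows shown hold 33 each. The GC box, searched as GGGCGG on both strands, is in 11 of the 13 member windows and in 46.2% of all windows. The CCAAT box, searched as CCAAT on both strands, is in 5 of the 13 and in 38.2% of all. An ETS-type motif, searched as CCGGAAG on both strands, is in 1 of the 13, the Asxl1 window, and in 11.6% of all. No matches of different motifs overlapped, and each GC box and ETS match contains 1 CpG. A match describes letters only. The 13 windows are not independent, since the Dnmt3a windows 3806730-3807029 and 3806910-3807209 overlap. Most member windows also hold more G and C than the median window, up to 82.3% at Dnmt3a, and the part of this in the motif shares was not tested.

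Depth limits every value given here. The confined libraries held 340922, 221390 and 128257 counts in peaks, and the unconfined libraries held 304898, 1229478 and 983863. A count of 0 allows up to 3 counts, which is 8.80, 13.6 and 23.4 counts per 1000000 counts in all peaks (CPM) in confined libraries 1, 2 and 3, and 2.44 to 9.84 CPM in unconfined ones. Across the 36 member peaks, Pearson r of log2(CPM + 1) was 0.541 to 0.877 between unconfined libraries. Between unconfined libraries and confined library 1 it was 0.249 to 0.439, with library 2 -0.0674 to 0.102 and with library 3 -0.299 to -0.254, as a description across peaks that share library and depth. Over all 42632 peaks the same ranges were 0.676 to 0.824 among unconfined libraries, and 0.418 to 0.524, 0.0243 to 0.05 and -0.0270 to -0.00727 for confined libraries 1, 2 and 3. Between confined libraries r was 0.0194 to 0.0856 over all peaks and -0.107 to 0.276 over the members, so the confined replicates were little alike peak by peak. Confined libraries 2 and 3 thus stand apart, and the main results are also given without both of them. Of 10 HSC marker genes, 9 had a linked peak, Ly6a being the exception. The 50 HSC peaks summed to 1150 to 1230 CPM in confined and 1100 to 1190 CPM in unconfined libraries. Per peak that was 22.9 to 24.6 CPM in confined and 22.0 to 23.8 CPM in unconfined libraries, near the mean of 23.5 CPM over all peaks. The 24 peaks at 7 of 8 stromal and endothelial genes (all but Lepr) summed to 496 to 696 CPM in confined and 330 to 397 CPM in unconfined libraries. The 11 peaks at 5 of 6 B cell genes summed to 188 to 235 CPM in confined and 144 to 174 CPM in unconfined libraries. Only 2 of 8 T and NK cell genes had a peak, with 27.1 to 76.3 CPM in confined and 61.0 to 131 CPM in unconfined libraries. Peaks at Cd34 and Flt3, whose proteins the sort selected against, summed to 296 to 357 CPM in confined and 219 to 295 CPM in unconfined libraries. The myeloid (6 of 8 genes with a peak) and erythroid (4 of 6) sums overlapped between groups. The part of these differences in the results was not tested.

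The peak over the Asxl1 start fell in confined cells, and it was the only one of the 7 member peaks tested that passed. That call came from the fit with group as the only term. It was lost with the replicate number as a block (edgeR adjusted p = 0.0541) and with DESeq2 (adjusted p = 0.128). In unconfined cells the Asxl1 start peak was the most accessible of the 36. In CPM, 6 of the 36 peaks (16.7%) were lower in each confined library than in any unconfined one, and 8 (22.2%) were higher. Over all 42632 peaks these shares were 13.2% and 16.8%. The 6 include a Dnmt1 start peak, which did not pass, and a peak beside a Dnmt3a start, untested after filtering. They also include the Tet3 gene-end peak, called lower only with no filter. With total counts as scaling, summed Tet1 and summed Tet3 peaks were higher in each confined library, as in 15.3% of 14569 genes. The summed counts of all 36 peaks did not separate the groups, with 898, 745 and 850 CPM in confined libraries against 800, 844 and 819 CPM in unconfined ones. In bulk samples, fewer cells with an open site and less opening per cell cannot be told apart.

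**Figure D1:**
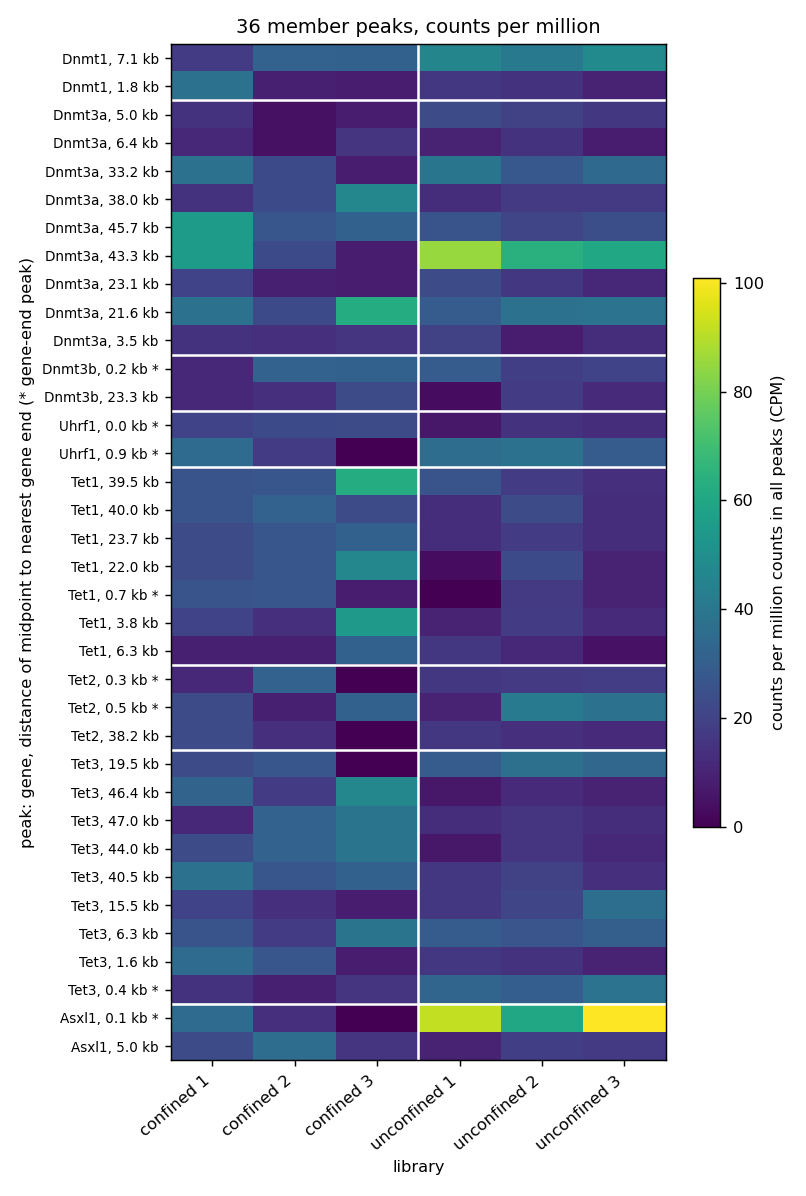
CPM of the 36 member peaks (rows, by gene and then by position) in the 6 libraries (columns). The Asxl1 start peak (mean 84.2 CPM) and the Dnmt3a peak 43283 bp from a gene end (69.8 CPM) stand highest in the unconfined columns, and average 16.2 and 28.7 CPM in the confined columns.

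The Asxl1 start peak, chr2:153345398-153346097, covers the annotated start at 153345830, and its midpoint lies 83 bp from it, outside the gene body. It held 12, 3 and 0 counts in confined libraries against 28, 74 and 99 counts in unconfined ones. That is 35.2, 13.6 and 0 CPM in confined libraries and 91.8, 60.2 and 101 CPM in unconfined libraries. All 3 confined values lay below all 3 unconfined values, and the mean was 16.2 ± 17.8 CPM in confined and 84.2 ± 21.3 CPM in unconfined cells (SD, n = 3 each). The 0 of confined library 3 allows up to 23.4 CPM. In unconfined cells the peak ranked at percentile 97.6 of all peaks, and it passed the filter of the fit through this group, where it is high. Its log2 fold change was -1.27 ± 0.41 (SE), with a Benjamini-Hochberg adjusted p of 0.0473 in edgeR's quasi-likelihood test. The adjusted p was close to the 0.05 threshold, and the call was lost with the replicate number as a block (log2 fold change -1.43, edgeR adjusted p = 0.0541) and with DESeq2 (-1.38, adjusted p = 0.128). It was also lost without confined library 2 (-1.38, edgeR adjusted p = 0.0839) and without unconfined library 3 (-1.31, edgeR adjusted p = 0.0893). With confined libraries 2 and 3 both left out, an alternative added after seeing the data, only confined library 1 remained and the log2 fold change was -1.45. With no filter the peak was called (log2 fold change -2.22, edgeR adjusted p = 0.0112).

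**Figure D2:**
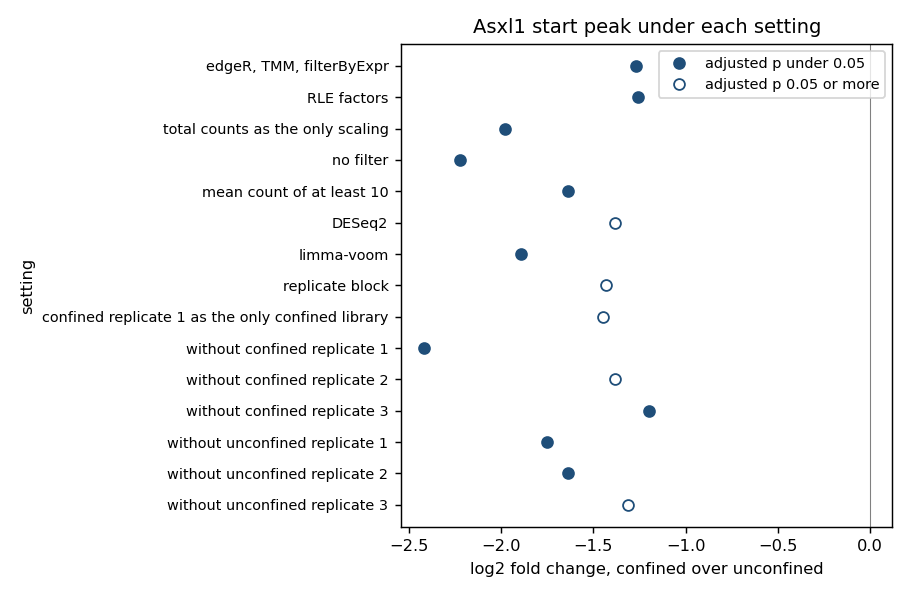
Log2 fold change of the Asxl1 start peak (horizontal axis, confined over unconfined) under each setting (rows), with filled points where the adjusted p was under 0.05. Every value lies below 0, between -2.42 and -1.20, and 5 of the 15 settings miss the threshold, among them the one with a single confined library.

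The fold changes of this fit are relative to scaling over the 9084 peaks that passed its filter. Those peaks held 34.8%, 24.2% and 23.6% of the counts in confined libraries and 50.2%, 43.2% and 51.2% in unconfined libraries. With total counts in all peaks as the only scaling, the median log2 fold change of tested peaks was -0.68 in place of -0.02, and the Asxl1 peak was at -1.98. A fold change of this fit is therefore more positive than the ratio of the mean CPM values of the same peak. Most peaks over promoter windows shared the direction of the Asxl1 peak. In this fit their median log2 fold change was -0.27, with 68.2% below 0, and with no filter it was -0.73, with 79.6% below 0. The second Asxl1 peak, inside the gene and 5016 bp from its start, overlapped between groups, with 23.5, 36.1 and 15.6 CPM in confined against 9.84, 18.7 and 17.3 CPM in unconfined libraries.

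Only 7 of the 36 member peaks passed the filter, and 1 of them was called lower and none higher. Over all tested peaks 2.42% were called lower and 5.79% higher, so 1 call of 7 is no result about the set. Without adjustment, the Asxl1 peak was likewise the only one of the 7 with p under 0.05, and neither DESeq2 nor limma-voom called any member higher. The median log2 fold change of the 7 was -0.13, against -0.02 over all tested peaks. The 6 others were the Dnmt1 start peak (-0.19), Dnmt3a peaks 43283, 33242 and 21558 bp from a gene end (-0.25, 0.39 and 0.67), the Uhrf1 peak 895 bp from the gene end (0.04) and the Tet2 start peak (-0.13). Their edgeR adjusted p ranged from 0.262 to 0.978. Tested with no filter, all 36 entered, and 2 were called lower and none higher, where 4.27% of all 42632 peaks were called lower and 1.47% higher. The second was the Tet3 gene-end peak (log2 fold change -1.57 ± 0.52 SE, adjusted p = 0.0478 in edgeR). There, 18 members had a log2 fold change below 0 and 18 above it, with a median of 0.02 against 0.12 over all peaks. Before adjustment 8 had p under 0.05, of which 6 were lower and 2 higher. Over all 42632 peaks, 13.4% had an unadjusted p under 0.05 and were lower and 9.53% were higher, so the 8 are no result about the set.

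The maintenance genes Dnmt1 and Uhrf1 had 2 peaks each. The Dnmt1 start peak, chr9:20952456-20953155, covers 2 annotated starts inside the gene, 7083 bp from the outer end, and held 17.6, 31.6 and 31.2 CPM in confined libraries against 45.9, 40.7 and 47.8 CPM in unconfined ones. These rest on 6, 7 and 4 counts in confined and 14, 50 and 47 counts in unconfined libraries, and the groups did not overlap. The log2 fold change of -0.19 (SE 0.40, edgeR adjusted p = 0.816) did not pass, and neither did -1.03 in the fit with no filter (edgeR adjusted p = 0.165). The other Dnmt1 peak, 1753 bp outside the gene, held 38.1, 9.03 and 7.80 CPM in confined and 16.4, 14.6 and 10.2 CPM in unconfined libraries, with overlapping groups. At Uhrf1, the peak over the second annotated start, chr17:56303883-56304582, held 35.2, 18.1 and 0 CPM in confined and 36.1, 38.2 and 29.5 CPM in unconfined libraries. Confined library 1 lay within the unconfined range there, and confined library 3 had 0 counts, which allows up to 23.4 CPM. The Uhrf1 peak over the outer start, chr17:56302965-56303664, was higher in each confined library, at 20.5, 22.6 and 23.4 CPM against 6.56, 14.6 and 13.2 CPM in unconfined libraries. Its log2 fold change with no filter was 0.57 (SE 0.56, edgeR adjusted p = 0.574).

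**Figure D3:**
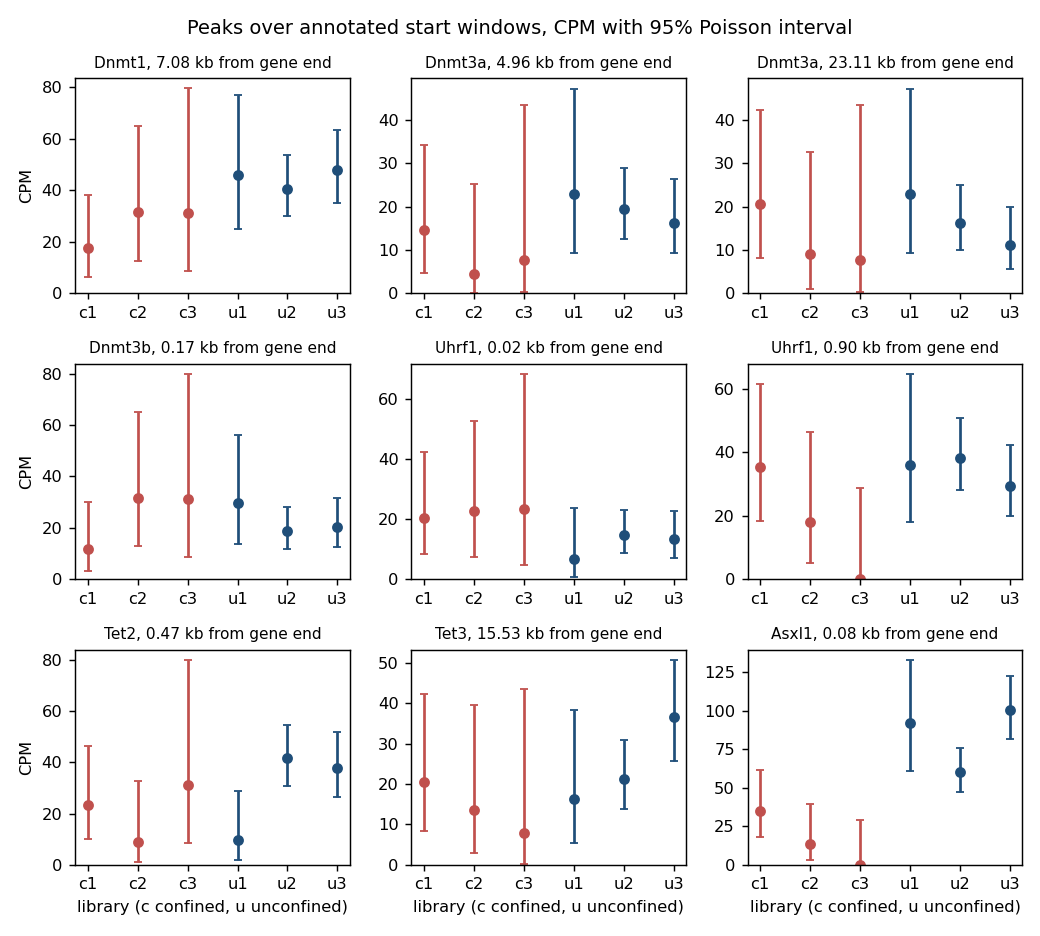
CPM of the 9 member peaks that overlap an annotated start window (panels) in each library (horizontal axis, confined libraries c1 to c3 left of unconfined u1 to u3), with exact Poisson intervals for counting error. At Asxl1 the 3 confined points (0 to 35.2 CPM) lie below the 3 unconfined points (60.2 to 101 CPM). Points also separate at 1 peak each of Dnmt1, Dnmt3a and Uhrf1, and overlap at the other 5 peaks.

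Dnmt3a, the gene of the main de novo methyltransferase of blood stem cells, had 9 distal peaks and no gene-end peak, and 8 of them lay inside the gene. The Dnmt3a peak at chr12:3870811-3871510, inside the gene and 43283 bp from its end, was second to Asxl1 among the 36 in unconfined cells. It held 19, 5 and 1 counts in confined libraries against 26, 79 and 59 counts in unconfined ones, which is 28.7 ± 24.5 CPM in confined and 69.8 ± 13.5 CPM in unconfined cells (SD, n = 3 each). In CPM the groups did not overlap, with confined library 1 (55.7 CPM) nearest to the unconfined ones, but neither fit called it (log2 fold change -0.25, edgeR adjusted p = 0.707 and, with no filter, -1.20, edgeR adjusted p = 0.111). A weaker Dnmt3a peak, 462 bp from an annotated start, chr12:3806169-3806868, held 14.7, 4.52 and 7.80 CPM in confined and 23.0, 19.5 and 16.3 CPM in unconfined libraries. The Dnmt3a peak beside the internal start at 3891744, chr12:3890988-3891687, held 20.5, 9.03 and 7.80 CPM in confined and 23.0, 16.3 and 11.2 CPM in unconfined libraries, and these groups overlapped. One Dnmt3a peak ran the other way: 45744 bp from a gene end, at chr12:3868350-3869049, it held 55.7, 27.1 and 31.2 CPM in confined and 26.2, 21.1 and 24.4 CPM in unconfined libraries. Both other tested Dnmt3a peaks overlapped between groups: the one 33242 bp from a gene end held 38.1, 22.6 and 7.80 CPM in confined and 39.4, 27.7 and 34.6 CPM in unconfined libraries. The one 21558 bp away held 38.1, 22.6 and 62.4 CPM in confined and 29.5, 38.2 and 38.6 CPM in unconfined libraries. Summed over the 9 peaks, Dnmt3a had 264, 149 and 203 CPM in confined against 269, 227 and 224 CPM in unconfined libraries, and confined library 1 lay inside the unconfined range. Dnmt3b, the second de novo enzyme, had 2 weak peaks, and the one over its start held 11.7, 31.6 and 31.2 CPM in confined and 29.5, 18.7 and 20.3 CPM in unconfined libraries.

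Just outside the 50 kb limit lay a Dnmt3a peak 54503 bp from the gene end, chr12:3855713-3856412, with 70.4, 40.7 and 54.6 CPM in confined and 112, 83 and 122 CPM in unconfined libraries. The other 4 peaks outside it were nearest to Tet2. The one 78377 bp away held 29.3, 40.7 and 23.4 CPM in confined and 125, 83 and 91.5 CPM in unconfined libraries, lower in each confined library. The one 135420 bp away held 20.5, 27.1 and 23.4 CPM in confined and 9.84, 8.95 and 5.08 CPM in unconfined libraries, higher in each confined library. At 114802 and 209685 bp the groups overlapped. The farthest members inside the limit were Tet3 peaks at 46998 and 46370 bp.

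Among the Tet genes, Tet1, best known from embryonic stem cells, had 7 peaks, with means of 16.3 to 38.6 CPM in confined cells and 9.08 to 19.5 CPM in unconfined cells. No Tet1 peak overlapped the promoter window, and its gene-end peak, 740 bp inside the gene, held 26.4, 27.1 and 7.80 CPM in confined and 0, 17.1 and 10.2 CPM in unconfined libraries. The strongest Tet1 peak, chr10:62843714-62844413, lay inside the gene and held 26.4, 27.1 and 62.4 CPM in confined and 26.2, 17.9 and 14.2 CPM in unconfined libraries. Summed, Tet1 had 155.5, 162.6 and 257.3 CPM in confined libraries against 82.0, 128.5 and 78.3 CPM in unconfined ones. The groups did not overlap (192 ± 56.8 CPM in confined and 96.3 ± 28.0 CPM in unconfined cells, SD, n = 3 each; exact permutation test, two-sided, p = 0.1, below which 3 against 3 cannot go), and confined library 1 alone lay above each unconfined library. The log2 ratio of means was 0.99 with total counts, 0.77 with scaling over all peaks by TMM (trimmed mean of M-values) and 1.78 with TMM over tested peaks. In the fit with no filter each of the 7 peaks had a log2 fold change above 0, from 0.26 to 0.81, and none of them had an unadjusted p under 0.05. Over all linked peaks that overlap no promoter window, the median in that fit was 0.26, with 36.7% below 0. A value above 0 was thus the more common one for such peaks.

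Tet2, the Tet gene most often mutated in clonal haematopoiesis, had 3 peaks. The Tet2 start peak, chr3:133544313-133545012, held 23.5, 9.03 and 31.2 CPM in confined and 9.84, 41.5 and 37.6 CPM in unconfined libraries. Unconfined library 1, the shallowest of its group, was the low value there, and the groups overlapped. The Tet2 peak at the other end of the gene, 291 bp away, held 11.7, 31.6 and 0 CPM in confined and 16.4, 17.1 and 18.3 CPM in unconfined libraries, so that the spread lay among the confined libraries.

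Tet3 had 9 peaks that went both ways. The Tet3 gene-end peak, chr6:83456424-83457123, held 14.7, 9.03 and 15.6 CPM in confined libraries against 32.8, 30.1 and 38.6 CPM in unconfined ones, from 5, 2 and 2 counts against 10, 37 and 38. These groups did not overlap, and this peak passed only in the fit with no filter. The Tet3 peak over the annotated start at 83441678, chr6:83441332-83442031, held 20.5, 13.6 and 7.80 CPM in confined and 16.4, 21.1 and 36.6 CPM in unconfined libraries, with overlapping groups. Inside the gene, 4 neighbouring Tet3 peaks between 83408394 and 83417027 averaged 27.4 to 32.4 CPM in confined and 9.64 to 16.7 CPM in unconfined cells. The one with the lowest unconfined mean, 46370 bp from a gene end, held 32.3, 18.1 and 46.8 CPM in confined and 6.56, 12.2 and 10.2 CPM in unconfined libraries, from 11, 4 and 6 counts in confined and 2, 15 and 10 counts in unconfined libraries. A Tet3 peak inside the gene, 19494 bp from a gene end, was lower in each confined library. It held 23.5, 27.1 and 0 CPM in confined and 29.5, 37.4 and 33.5 CPM in unconfined libraries. The strongest Tet3 peak over all libraries, 6262 bp from a gene end, held 26.4, 18.1 and 39.0 CPM in confined and 29.5, 26.8 and 30.5 CPM in unconfined libraries, with overlapping groups. Summed, Tet3 had 226, 203 and 226 CPM in confined and 167, 193 and 198 CPM in unconfined libraries. The log2 ratio was 0.23 with total counts, 0.00 with TMM over all peaks and -0.50 with peaks within 20 kb alone.

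**Figure D4:**
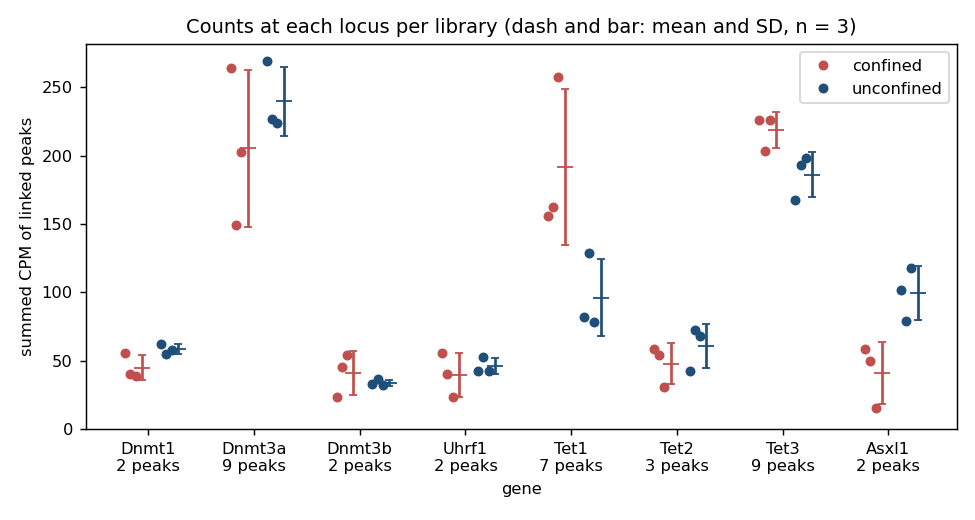
Summed CPM of the linked peaks of each gene (horizontal axis), with each library as a point and mean and SD beside it (n = 3). Confined values lie above unconfined ones at Tet1 and Tet3 and below them at Asxl1, and overlap at the other 5 genes.

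By locus, the order in confined cells was Tet3 (218 CPM), Dnmt3a (205), Tet1 (192), Tet2 (48.0), Dnmt1 (45.1), Asxl1 (41.3), Dnmt3b (41.1) and Uhrf1 (39.9). In unconfined cells it was Dnmt3a (240 CPM), Tet3 (186), Asxl1 (99.5), Tet1 (96.3), Tet2 (61.0), Dnmt1 (58.5), Uhrf1 (46.1) and Dnmt3b (34.0). Neighbours in this order that differed by no more than the larger of their SDs were, in confined cells, all but Tet1 and Tet2. In unconfined cells they were Asxl1 with Tet1 and Tet2 with Dnmt1. These sums grow with the number of peaks, from 2 to 9 per gene. Groups did not overlap at 2 genes in the higher direction, Tet1 and Tet3, and at 1 gene in the lower direction, Asxl1. Over 14569 genes with a linked peak, 15.3% were higher and 20% lower by the same rule, and 3 of 8 genes is too few to read against that. The tally depended on scaling. With TMM over all peaks, Tet3 overlapped (0.00) and Dnmt1 was lower without overlap (-0.60). With TMM over tested peaks, Asxl1 overlapped (-0.54), and Dnmt1 (0.37) and Dnmt3a (0.51) were higher without overlap. That scaling gave each of the 8 genes a higher log2 ratio than total counts did. Shares over all genes were not taken under the TMM scalings, so these tallies have no background to be read against. Under all 3 scalings Tet1 was higher without overlap. As a share of the counts in the 36 peaks, which needs no scaling between libraries, Asxl1 held 6.54%, 6.67% and 1.83% in confined libraries against 12.7%, 9.34% and 14.4% in unconfined ones. Tet1 held 17.3%, 21.8% and 30.3% in confined libraries against 10.2%, 15.2% and 9.55% in unconfined ones.

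Peak by peak, 6 of the 36 (16.7%) were lower in each confined library than in any unconfined library, and 8 (22.2%) were higher. Over all 42632 peaks these shares were 13.2% lower and 16.8% higher. The 6 lower peaks had means of 8.99 to 28.7 CPM in confined cells and 19.6 to 84.2 CPM in unconfined cells. The 8 higher peaks had means of 22.2 to 38.6 CPM in confined cells and 9.64 to 23.9 CPM in unconfined cells, against 23.5 CPM for the mean over all peaks. Of the 8 higher peaks, 3 belonged to Tet1, 3 to Tet3, 1 to Dnmt3a and 1 to Uhrf1, and 7 were distal.

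The 8 gene-end peaks summed to less in each confined library than in any unconfined one, and most of the difference lay in the Asxl1 peak. The sum was 179, 163 and 109 CPM in confined libraries against 223, 238 and 268 CPM in unconfined ones, with no overlap between groups. The means were 150 ± 36.5 CPM in confined and 243 ± 23.1 CPM in unconfined cells, a difference of -92.7 CPM that is larger than either SD (n = 3 each; exact permutation test, two-sided, p = 0.1). The Asxl1 peak alone differed by -68.0 CPM. Without it, the other 7 summed to 144, 149 and 109 CPM in confined and 131, 177 and 168 CPM in unconfined libraries. Those groups overlapped, with a difference of -24.8 CPM (n = 3 each; exact permutation test, two-sided, p = 0.3). With confined libraries 2 and 3 left out, the difference of all 8 was -64.0 CPM. Distal peaks summed to 719, 583 and 741 CPM in confined and 577, 607 and 551 CPM in unconfined libraries. There the groups overlapped (681 ± 85.6 CPM in confined and 578 ± 28.0 CPM in unconfined cells, SD, n = 3 each; exact permutation test, two-sided, p = 0.2). The difference of 102 CPM was 3.88 CPM with TMM over all peaks, -10.8 CPM within 20 kb and 140 CPM with confined libraries 2 and 3 left out.

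The log2 ratio of gene-end to distal counts within a library needs no scaling. It was -2.01, -1.84 and -2.76 in confined libraries against -1.37, -1.35 and -1.04 in unconfined ones, and all confined values were lower. The difference of -0.95 (exact permutation test, two-sided, p = 0.1, n = 3 each) was -0.75 with confined libraries 2 and 3 left out. Over all linked peaks the same difference was -0.94, so nothing here is particular to these genes. Without Asxl1 the ratio was -2.27, -1.87 and -2.73 in confined and -2.11, -1.73 and -1.67 in unconfined libraries. Those groups overlapped and differed by -0.46 (exact permutation test, two-sided, p = 0.2, n = 3 each). Dividing the peaks by start windows in place of gene ends, a choice made after seeing the data, gave differences of -1.15 for the 8 genes and -1.01 for all linked peaks.

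**Figure D5:**
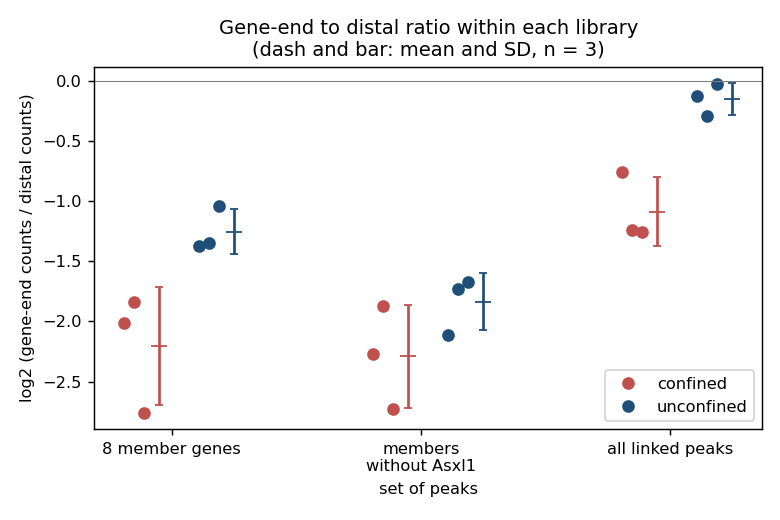
Log2 ratio of gene-end to distal counts (vertical axis) in each library, for the 8 member genes, for the same without Asxl1 and for all linked peaks, with mean and SD (n = 3). Confined points lie below unconfined points for the member genes and for all linked peaks, and overlap with them without Asxl1.

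Among 74 other genes of DNA methylation and clonal haematopoiesis, 71 had a linked peak, and 57 of their 241 peaks were tested. Of these, 3 fell (5.26%) and 1 rose (1.75%), where 2.42% of all tested peaks were called lower and 5.79% higher. Their median log2 fold change was -0.27, against -0.02 over all tested peaks. Of the 57, 30 were gene-end peaks, and of all 9084 tested peaks 4636 were, so the mix of peak classes was much alike. Tested gene-end peaks of all genes had a median of -0.26 and linked distal peaks one of 0.25. The cause of the list's lower median was not tested. The Asxl2 peak, at the end of a paralogue of Asxl1 (34 bp from the gene end, chr12:3426474-3427173), held 4, 3 and 2 counts in confined and 21, 72 and 78 counts in unconfined libraries. It fell to 13.6 ± 1.93 CPM in confined cells, against 68.9 ± 10.4 CPM in unconfined cells (SD, n = 3 each). Its log2 fold change was -1.73 ± 0.44 (SE), with an adjusted p of 0.0106 in edgeR and 0.0392 with the replicate block, and the call was lost with DESeq2 (-1.69, adjusted p = 0.0634). The gene-end peak of Mbd3, which encodes a subunit of the NuRD complex, held 18, 4 and 1 counts in confined and 36, 136 and 122 counts in unconfined libraries and fell (log2 fold change -1.19, edgeR adjusted p = 0.0377). A peak 26461 bp from Cxxc5, a CXXC zinc finger gene, held 4, 4 and 2 counts in confined and 23, 57 and 68 counts in unconfined libraries and fell (-1.38, edgeR adjusted p = 0.0447). With the replicate block, both calls were lost (edgeR adjusted p = 0.0877 for Mbd3 and 0.108 for Cxxc5), as they were with DESeq2 (adjusted p = 0.0895 and 0.161) and limma-voom (adjusted p = 0.0678 and 0.0863). The peak that rose lay inside Kdm2b, a CpG-binding histone demethylase gene, with 11, 8 and 5 counts in confined and 2, 15 and 14 counts in unconfined libraries. Its log2 fold change was 2.23 ± 0.55 (SE), with an adjusted p of 0.00902 in edgeR. This peak passed the filter through the confined group, where it is high, and was not called in the fit with no filter (log2 fold change 1.31, edgeR adjusted p = 0.0798). The 3 peaks that fell passed the filter through the unconfined group, where they are high. With no filter they were called too (edgeR adjusted p = 0.00533 for Asxl2, 0.0173 for Mbd3 and 0.00977 for Cxxc5). With confined libraries 2 and 3 left out, only confined library 1 remained. The log2 fold changes were then -2.75 for Asxl2, -1.37 for Mbd3, -2.58 for Cxxc5 and 1.19 for Kdm2b. By list, the median log2 fold change of tested peaks was -0.34 for 17 peaks of readers and cofactors, -0.26 for 7 of demethylation and repair, -0.28 for 5 of the Asxl and Bap1 group and -0.20 for 28 of clonal haematopoiesis drivers. The 4 calls lay in the readers and cofactors (Kdm2b, Mbd3 and Cxxc5) and the Asxl and Bap1 group (Asxl2).

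By the profile of summed gene-end log2(CPM + 1) over the 6 libraries, the genes most like the 8 members were Uxs1, Srsf2, Vezt, Os9 and Azin1, with Pearson r of 0.996 to 0.998 among 3638 genes compared. The 6 points share depth and fall into 2 groups, so this is a description. At Srsf2, a splicing factor gene that is itself mutated in clonal haematopoiesis, the sum was 41.1, 36.1 and 15.6 CPM in confined libraries against 75.4, 78.9 and 104 CPM in unconfined ones. Genes picked by this profile share the lower confined values of the member gene-end sum through the selection, so they lend it no support. Of the 28 tested peaks of clonal haematopoiesis drivers, 0 were called higher and 0 lower.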

How the data were processed

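The authors deposited raw counts per peak for 6 libraries and 1 list of 42632 peaks of 700 bp on mm10. SAMtools 1.14, R 4.2.0 and featureCounts are named in the submitters' processing notes. Not given in the sources used here are their roles, the aligner, how and in which libraries peaks were called, duplicate removal and any transposase shift. If peaks came mainly from one group, sites open only in the other would be missing.

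Peaks were linked with RefSeq gene bounds of GRCm38.p6. That table gives no exons, so exon, intron and UTR positions are not stated, and strand came from the promoter windows. Counts were tested across all peaks by edgeR 4.0.16 under R 4.3.3 (TMM, filterByExpr, glmQLFit, glmQLFTest, group as the only term, two-sided, Benjamini-Hochberg adjustment over all tested peaks, threshold 0.05). The filter asks for about 31.0 CPM in at least 3 libraries and kept 9084 peaks, so a high level in a single group suffices. Alternatives were DESeq2 1.42.0, limma-voom (limma 3.58.1), other scalings and filters, the replicate block and leaving out each library. Sums and ratios were compared by exact permutation under Python 3.11.15. The edgeR script was tested on counts simulated from pooled peak means. It called 21% of true log2 changes of 1 and 77% of changes of 2, so a peak that was not called is not shown to be unchanged. Intervals and floors cover counting error only.

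The experimental batch number in the labels pairs same-numbered libraries. Deviations from group means correlated at r = 0.0437, 0.0597 and -0.0470 for pairs 1, 2 and 3, so the pairing rests on the label. Members and lists were chosen with earlier results of these data known. Described were all tested member peaks, every gene-end peak and each gene's highest peak, and listed pathway peaks past the threshold, at most 6 per direction. Other untested peaks were added with their values known, so those follow no fixed rule.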

Additional observations from a re-analysis of the deposited data

How the results depend on the processing

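Limits: at 3 against 3 libraries the smallest permutation p is 0.1, the confined libraries hold few counts per peak, and 29 of 36 member peaks were untested after filtering.
No member peak was called higher under any alternative run. The count of members called lower, 1, was 2 with no filter, 0 with DESeq2 and with the replicate block, and 0 to 1 with 1 library left out. The pathway list's count of higher peaks, 1, was 2 with no filter (Kdm2b not among them) and 2 with limma-voom. It was 0 with the mean-count filter (at least 10 per library), 0 within 20 kb and 0 to 7 with 1 library left out. The list's count of lower peaks, 3, was 22 with total counts as the only scaling, 18 with no filter and 6 with the mean-count filter. It was 0 with DESeq2, 1 with the replicate block and 1 to 8 with 1 library left out. The cause was not tested. Over all peaks, higher and lower calls were 526 and 220, against 348 and 2286 with total counts alone, 476 and 74 with the replicate block, 627 and 1821 with no filter, and 453 and 77 with DESeq2. They were 783 and 221 with limma-voom and 573 and 581 with the mean-count filter. With 1 library left out, they ranged from 250 to 1696 higher and from 76 to 788 lower. The setting without confined library 1, which gave the list's 7, called 1696 of 10622 tested peaks higher.
The gene-end difference of -92.7 CPM was -123 with TMM over all peaks, -124 with start windows and -107 to -72.2 with 1 library left out. The replicate block left it at -92.7 CPM (exact sign-flip permutation p = 0.25, the smallest 3 pairs allow). The distal difference of 102 CPM was 3.88 with TMM over all peaks, -10.8 within 20 kb, -24.1 with the mean-count filter and 72.4 to 151 with 1 library left out. The ratio difference of -0.95 stayed between -1.15 and -0.65, and was -1.13 to -0.67 with 1 library left out.
The summed Tet3 log2 ratio of 0.23 turned to -0.50 within 20 kb and -0.41 with the mean-count filter. Among single peaks, sign turned only for members that had not passed. The Dnmt3a peak at 33242 bp (0.39) was -0.24 with total counts, -0.48 with no filter, -0.12 without confined library 1, -0.04 without unconfined library 1 and -0.12 to 0.40 with 1 library left out. The Dnmt3a peak at 21558 bp (0.67) was -0.15 with no filter and -0.16 with confined library 1 alone. The Uhrf1 peak at 895 bp (0.04) was -0.59 with total counts, -0.81 with no filter, -0.29 with the mean-count filter, -0.03 with DESeq2, -0.46 with limma-voom, -0.18 with the replicate block, -0.18 with confined library 1 alone and -0.80 to 0.12 with 1 library left out. The Tet2 start peak (-0.13) was 0.06 with DESeq2 and 0.32 with the replicate block, and the Dnmt1 start peak (-0.19) was 0.30 without confined library 1 and -0.73 to 0.30 with 1 library left out.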
